A study of Mus musculus with 4 samples.

Results

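Csf1r, which encodes the receptor of the macrophage growth factors, and the genes of its ligands, Csf1 and Il34, were followed across the cell classes of the subdural meninges of the mouse cerebellum. These 3 genes were chosen by symbol from the 32285 genes of the matrices, and their raw counts were read in every class and library. The NdpKO group lacked Ndp, the gene of norrin, which binds Fzd4 on endothelial cells and activates beta-catenin there, and the NdpWT group carried it. All mice of both groups were also Neurod2-SmoA1+/-, a transgene that expresses an activated Smoothened from the Neurod2 promoter in granule neurons of the cerebellum, on a C57/BL6 background. Ages were given as postnatal days 6 to 8 in the sample fields and as days 7 to 9 in the protocol. Each group had 2 libraries of droplet single-cell RNA sequencing, and each library was a pool of 5 cerebella, from 3 litters per run. Meninges were peeled from the cerebellum, with dura and choroid plexus left aside, and dissociated with Dispase II. The question was which stromal or vascular cells hold the transcripts of the ligands, and whether those levels and that of the receptor differed between NdpKO and NdpWT libraries.

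Csf1r is a receptor tyrosine kinase on macrophages, monocytes and microglia, and its signal is needed for the survival and growth of most tissue macrophages. It binds CSF1, which is made by many mesenchymal and endothelial cells, and IL-34, an unrelated sequence with a similar fold that neurons and keratinocytes are best known to make. In the brain and its coverings the ligands are supplied by cells other than the macrophages that depend on them.

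After filters, 5599 and 10676 cells were kept in NdpKO replicates 1 and 2, and 9079 and 12561 in NdpWT replicates 1 and 2, with a median of 7220 to 14296 UMIs (unique molecular identifiers, each a captured transcript) per cell. NdpKO replicate 1 stood apart, with 21.8% of its barcodes over the mitochondrial limit, against 7.58% to 10.4% in the other 3 libraries. Pairs of libraries shared 48 to 98 barcodes, at most 0.594% of the smaller library. Ndp had 40 and 50 UMIs in NdpKO replicates 1 and 2, against 200 and 138 in NdpWT replicates 1 and 2, or 0.411 and 0.471 CPM (the usual scaling of a count by the total UMIs of the same cells) against 2.07 and 1.35 CPM. No source used here states which part of Ndp was deleted, so these tags near the 3′ end may lie outside it. Cells were clustered without the 3 genes, and a cluster was named, as for example macrophage-like, where at least 3 fixed markers were among its 50 leading genes. The ending is left out from here on. No cluster or subcluster met the microglia markers. The leading genes of macrophage cluster 4 included Mrc1, Lyve1 and F13a1, known from macrophages of the brain borders. An unnamed myeloid subcluster, with Jun, Hspa1b and Ccl2 among its leading genes, had 357 of its 401 cells in NdpWT replicate 1.

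Csf1r lies on chromosome 18 at 61100598 to 61132149 on the plus strand (GRCm38), 15537 bases downstream of Pdgfrb, a related receptor gene that marks mural cells and fibroblasts. Its span holds Mir6983 and overlaps Hmgxb3 on the other strand. Csf1 lies on chromosome 3 at 107741048 to 107760469 on the minus strand, and no other annotated gene overlaps it. Il34 lies on chromosome 8 at 110741829 to 110805924 on the minus strand and overlaps the antisense genes Gm15894 and Gm15895. No source used here states whether counting used the strand, so tags in these overlaps may be shared.

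Csf1r transcripts were in macrophages and, at a lower level, in monocytes or dendritic cells. In macrophages the level was 1676 and 1277 CPM in NdpKO replicates 1 and 2, against 1277 and 1214 CPM in NdpWT replicates 1 and 2. In monocytes or dendritic cells it was 623 and 435 CPM in NdpKO, against 426 and 283 CPM in NdpWT. The ranges of these 2 classes over the 4 libraries did not overlap, and both lay above every other class. Macrophages held 91.1% and 83.1% of all Csf1r UMIs of NdpKO replicates 1 and 2, against 94.1% and 91.6% in NdpWT replicates 1 and 2. Monocytes or dendritic cells held a further 5.75% and 11.5% in NdpKO, against 1.87% and 3.16% in NdpWT. These shares also move with the number of cells of a class in the preparation. Classes are ranked here without the unnamed clusters 6, 7, 15, 17 and 27, whose cells had a median UMI count of 0.176 to 0.247 of that of their own libraries.

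**Figure D1:**
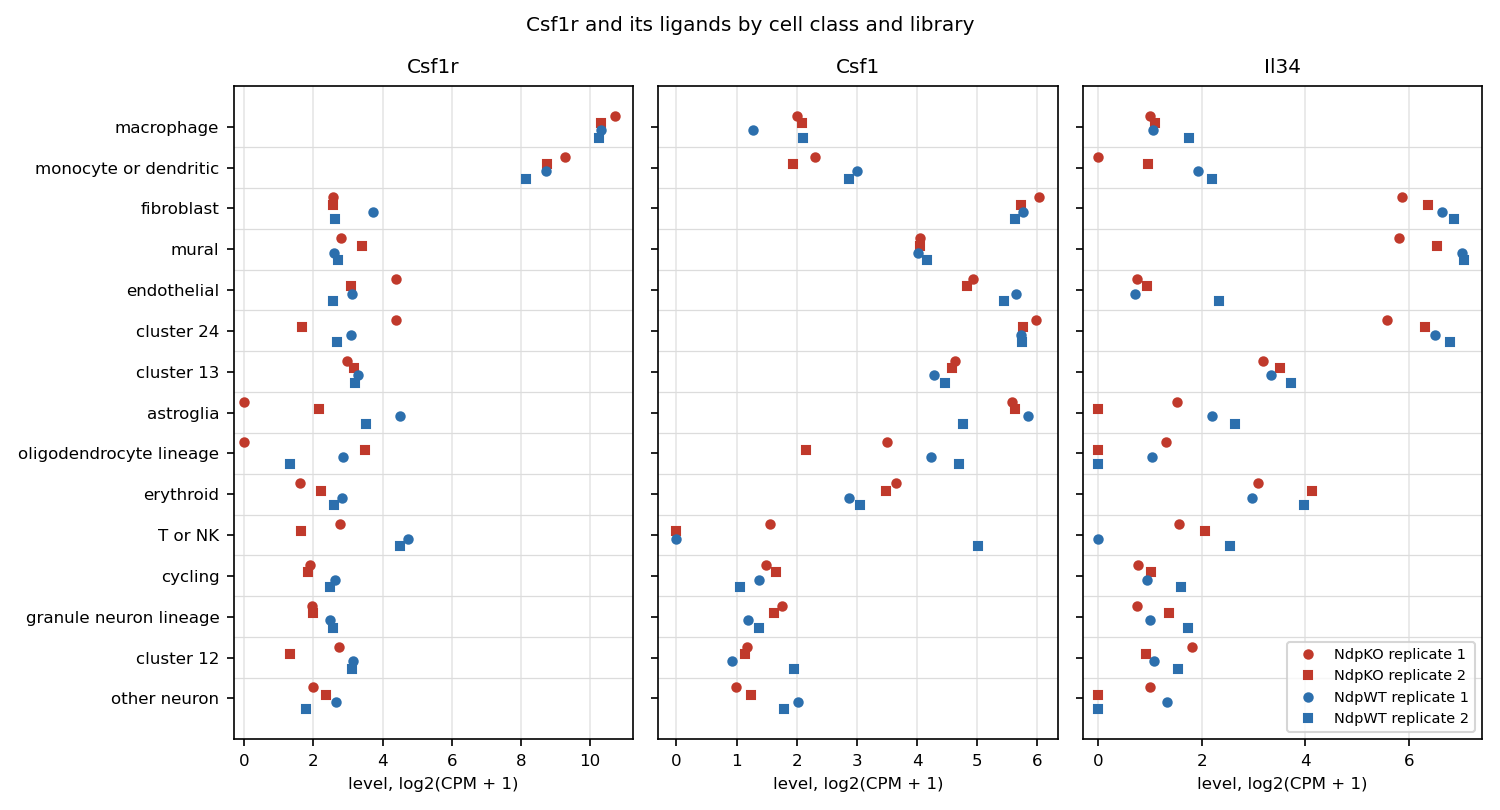
Level of Csf1r, Csf1 and Il34, as log2(CPM + 1), in 15 cell classes and unnamed clusters with at least 20 cells in every library, without the shallow unnamed clusters 6, 7, 15, 17 and 27. Each point is 1 library, NdpKO in red above NdpWT in blue. Csf1r stands out in the 2 myeloid classes, Csf1 in fibroblasts, cluster 24, astroglia and endothelial cells, and Il34 in mural cells, fibroblasts and cluster 24.

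Outside these classes Csf1r counts were few. With every cell thinned to 3000 UMIs, which left out 9743 shallower cells over all classes, 95.3% and 96.0% of macrophages of NdpKO replicates 1 and 2 had a Csf1r UMI, against 96.3% and 95.4% in NdpWT replicates 1 and 2. Unthinned, the shares were 84.8% and 88.9% in NdpKO, against 91.2% and 92.1% in NdpWT, at medians of 8212.5 to 15067 UMIs per cell. Shallow cells differed in number: macrophage cluster 19, at a median of 1713 UMIs, was 31.3% and 24.1% of macrophages in NdpKO, against 16.5% and 13.8% in NdpWT. In fibroblasts the thinned share was 1.69% and 1.19% in NdpKO, against 3.1% and 1.34% in NdpWT. In a cluster of erythroid cells (cluster 8), which should lack the receptor, it was 0.55% and 1.40% in NdpKO, against 2.89% and 1.44% in NdpWT. Set against the complement genes C1qa, C1qb and C1qc of macrophages, fibroblasts had 22.7 and 32.7 Csf1r UMIs per 100 C1q UMIs in NdpKO and 18.03 and 18.7 in NdpWT. Macrophages had 20.1 and 13.4 in NdpKO and 12.2 and 12.7 in NdpWT. The fibroblast value was the higher in every library, but this was not particular to fibroblasts. Endothelial cells, mural cells and the granule neuron lineage also exceeded macrophages in every library. The granule neuron lineage had 29.4 and 21.2 in NdpKO and 13.6 and 16.4 in NdpWT. Erythroid cells exceeded macrophages except in NdpWT replicate 2 (10.8). Thinned shares were 2.62% and 0.504% of endothelial cells in NdpKO, against 2.44% and 1.15% in NdpWT, and 1.10% and 3.09% of mural cells in NdpKO, against 1.32% and 1.23% in NdpWT. The ranges of all 3 classes overlapped that of erythroid cluster 8, but in NdpKO replicate 1 all 3 lay above it. Thinned Csf1r shares in these classes were thus not set apart from those of erythroid cluster 8 over the libraries. By level, granule neuron lineage cells had 2.85 to 4.96 CPM. The range of mural cells lay above it (5.06 to 9.67 CPM), while those of fibroblasts (4.87 to 12.1 CPM) and endothelial cells (4.88 to 19.9 CPM) overlapped it. The source of the unequal ratios was not tested. Among fibroblasts, mural and endothelial cells the largest fitted change of Csf1r was in endothelial cells, 1.20 ± 0.51 on the log2 scale (SE, edgeR, adjusted p = 0.386). It passed the threshold without NdpKO replicate 2 (1.75, adjusted p = 0.00022), at 19.9 CPM in NdpKO replicate 1 against 4.88 to 7.62 CPM in the other 3 libraries. In fibroblasts the fitted change was −0.82 ± 0.40 (adjusted p = 0.583), and it passed without NdpWT replicate 2 (−1.33, adjusted p = 0.00557). In NdpWT replicate 1, 65 of the 218 Csf1r UMIs of fibroblasts lay in the 50 cells of fibroblast cluster 14.

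Within the myeloid cells, Csf1r varied between the 13 subclusters. The one with the most cells, unnamed and led by Tnfsf18 and Crybb1, had 2078 and 1524 CPM in NdpKO, against 1429 and 1498 CPM in NdpWT. The unnamed subcluster with Jun and Hspa1b, mostly from NdpWT replicate 1, had 1683 and 1559 CPM in NdpKO, against 1543 and 1804 CPM in NdpWT. Both lay in the upper part of the range. A macrophage subcluster led by Cd209f, Cd209g and Cd209b, lectin genes, had 1887 and 1527 CPM in NdpKO, against 1434 and 1387 CPM in NdpWT. A macrophage subcluster led by Timd4, a receptor for dying cells, had 1478 and 1153 CPM in NdpKO, against 1098 and 1084 CPM in NdpWT. An unnamed subcluster led by Ace and Treml4, genes known from patrolling monocytes, had 1094 and 633 CPM in NdpKO, against 707 and 405 CPM in NdpWT. A monocyte or dendritic subcluster with Ly6c2 and Ccr2 among its leading genes had 762 and 635 CPM in NdpKO, against 668 and 494 CPM in NdpWT. Lower still was a monocyte or dendritic subcluster led by the MHC class II genes H2-Ab1 and H2-Eb1, with 372 and 266 CPM in NdpKO, against 208 and 163 CPM in NdpWT. NdpKO replicate 1 had the highest value of the 4 libraries in 10 of the 13 subclusters. The exceptions were the one with Jun, one led by fibroblast genes and the neutrophil subcluster, which was lowest at 47.1 to 214.03 CPM.

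Csf1r was not shown to differ between genotypes in either myeloid class. In macrophages it averaged 1476 ± 282 CPM in NdpKO and 1246 ± 44.2 CPM in NdpWT (SD, n = 2 each), and the NdpKO over NdpWT change was 0.22 ± 0.18 on the log2 scale (SE, edgeR quasi-likelihood test with Benjamini-Hochberg adjustment, adjusted p = 0.997). Without NdpKO replicate 1 the change was −0.042. Across macrophages 0 of 12625 genes passed the threshold of adjusted p under 0.05 (0.0%), 529 had an unadjusted p under 0.05, and DESeq2 called 15. In monocytes or dendritic cells Csf1r averaged 529 ± 133 CPM in NdpKO and 355 ± 101 CPM in NdpWT, a change of 0.57 ± 0.24 (adjusted p = 0.999). There 0 of 8751 genes passed (0.0%), 387 had an unadjusted p under 0.05, and DESeq2 called 1. Macrophages were 11.1% and 5.25% of cells in NdpKO replicates 1 and 2, against 12.6% and 7.21% in NdpWT replicates 1 and 2. Their share overlapped between the groups, with a change of −0.28 ± 0.60 (edgeR, adjusted p = 0.974 over 22 classes), which turned to 0.16 without NdpKO replicate 2 and 0.17 without NdpWT replicate 1.

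Csf1 transcripts were found in several kinds of cell, and fibroblasts held most of its transcripts. Ordered by the median over the 4 libraries, the leading classes were cluster 24, fibroblasts, astroglia and endothelial cells, whose neighbouring ranges overlapped. Fibroblasts had 64.6 and 51.8 CPM in NdpKO replicates 1 and 2, against 53.0 and 48.3 CPM in NdpWT replicates 1 and 2. Cluster 24, unnamed, with the cell division gene Hmmr and the collagen gene Col15a1 among its leading genes, had 61.7 and 53.4 CPM in NdpKO, against 51.7 and 52.5 CPM in NdpWT. Endothelial cells followed with 29.4 and 27.5 CPM in NdpKO, against 49.2 and 42.7 CPM in NdpWT. Below them came cluster 13 and mural cells, and at either step the range did not overlap that of the next class by median. Some ranked classes of lower median did span these steps. The oligodendrocyte lineage had 3.43 to 25.1 CPM, from 1 to 34 UMIs, and T or NK cells 0.0 to 31.2 CPM, from 0 to 13 UMIs. Cluster 13, unnamed, with Nppc, Ecrg4 and the transporter gene Slc47a1 among its leading genes, had 23.6 and 23.0 CPM in NdpKO, against 18.5 and 21.1 CPM in NdpWT. Mural cells had 15.6 and 15.5 CPM in NdpKO, against 15.2 and 17.1 CPM in NdpWT. Macrophages themselves had 1.43 to 3.31 CPM, no more than erythroid cluster 8 at its highest (0.928 to 3.56 CPM). Of the shallow clusters, cluster 27 had 40.9 and 15.1 CPM in NdpKO, against 68.5 and 46.5 CPM in NdpWT, from 3 to 11 UMIs, a range that spans most of these steps. Cluster 17 had 24.1 and 19.4 CPM in NdpKO, against 16.5 and 16.7 CPM in NdpWT, from 7 to 28 UMIs, and overlapped both cluster 13 and mural cells.

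Fibroblasts held 65.9% and 65.1% of all Csf1 UMIs in NdpKO replicates 1 and 2, against 59.2% and 55.9% in NdpWT replicates 1 and 2. Endothelial cells held 6.52% and 7.01% in NdpKO, against 9.57% and 18.6% in NdpWT, and were 5.34% and 4.74% of cells in NdpKO, against 2.94% and 8.35% in NdpWT. Cluster 13 held 12.1% and 8.01% in NdpKO, against 11.2% and 5.30% in NdpWT. Cluster 24 held 5.55% and 6.97% in NdpKO, against 3.83% and 5.90% in NdpWT, and was 0.463% to 1.07% of cells over the 4 libraries. Mural cells held 0.926% to 2.02% over the 4 libraries. The endothelial share of Csf1 UMIs was thus lower in both NdpKO libraries, with no overlap, while the fibroblast share was higher in both. Fibroblasts were also more of the cells in both, at 20.4% and 16.8% in NdpKO, against 11.7% and 15.8% in NdpWT.

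**Figure D2:**
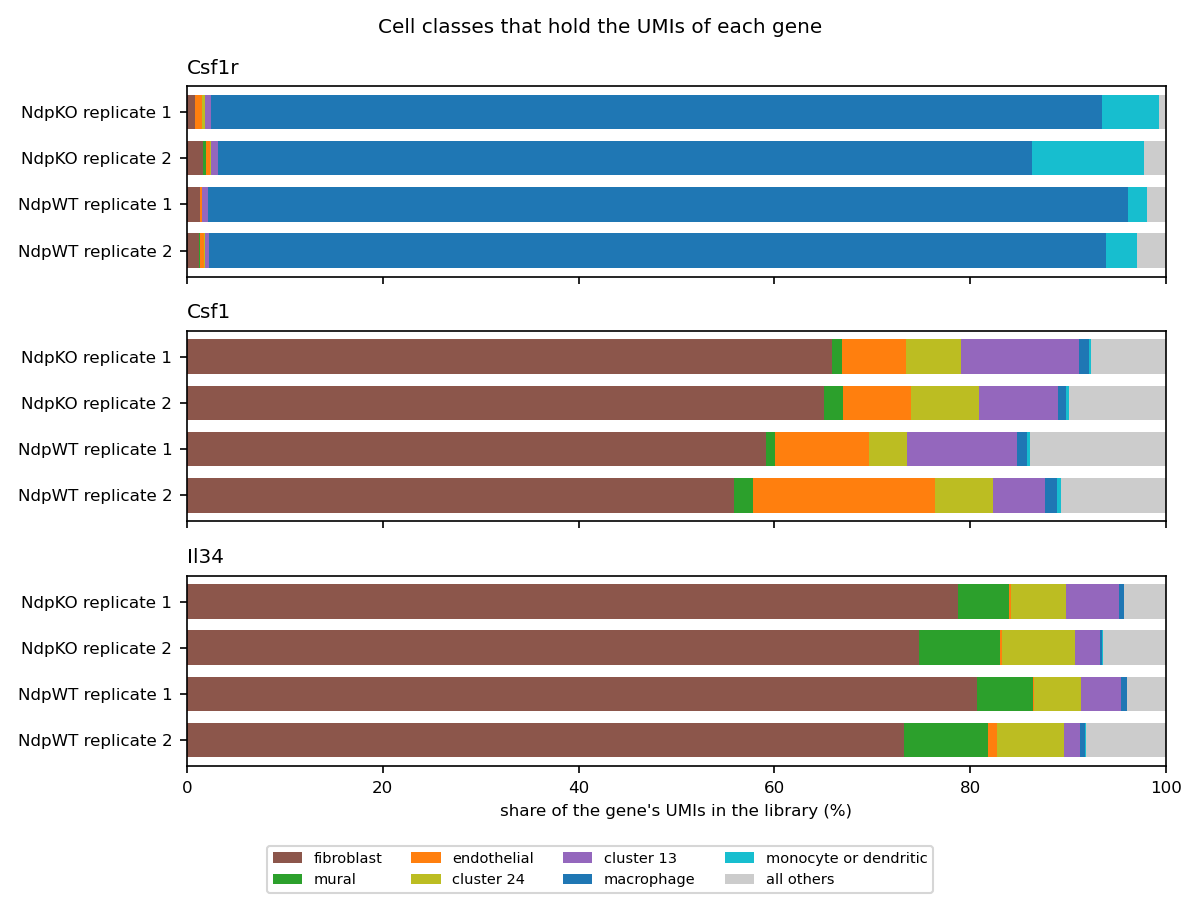
Share of the UMIs of Csf1r, Csf1 and Il34 in each library that lie in each cell class, as percent of all UMIs of the gene in kept cells, NdpKO libraries above NdpWT libraries. Macrophages hold 83.1% to 94.1% of Csf1r, and fibroblasts 55.9% to 65.9% of Csf1 and 73.2% to 80.7% of Il34.

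The Csf1 promoter is shown because Csf1 was the one of the 3 genes with a genotype call. The window is 250 bases before to 50 after the start of the gene, chr3:107760420-107760719 on the minus strand (RefSeq, GRCm38.p6), 5′ to 3′ along the gene, and 1 of the 3 genes has its window printed here. Capitals mark its single match to CTTTGA, only part of the core that Tcf and Lef factors of the Wnt pathway are known to bind. The letters were searched on both strands after the window had been seen.
Csf1: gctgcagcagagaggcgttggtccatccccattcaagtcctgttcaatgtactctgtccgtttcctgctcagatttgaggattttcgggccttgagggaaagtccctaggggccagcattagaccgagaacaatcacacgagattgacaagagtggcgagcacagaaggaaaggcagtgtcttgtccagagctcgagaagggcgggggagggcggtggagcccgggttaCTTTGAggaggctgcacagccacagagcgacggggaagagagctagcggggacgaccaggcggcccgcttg
The match begins at position −21 relative to the start site. Of 32851 promoter windows of this length, 16.0% hold these letters on either strand and the match only describes the sequence.

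Csf1 fell in the endothelial cells of NdpKO libraries. The class averaged 28.4 ± 1.32 CPM in NdpKO and 45.9 ± 4.57 CPM in NdpWT (SD, n = 2 each), and both NdpKO libraries lay below both NdpWT libraries. The change was −0.70 ± 0.16 on the log2 scale (SE, edgeR, adjusted p = 0.0480), in a class where 322 of 12532 genes, 2.57%, passed the threshold. This call was near the threshold: it was lost without any 1 of the 4 libraries (−0.82 to −0.59, adjusted p = 0.0509 to 0.240), with DESeq2 (adjusted p = 0.160) and with stricter cell filters (−0.53, adjusted p = 0.156). Markers of other cell types moved with it, in both directions. The 16 fibroblast markers summed to 3046 and 2526 CPM in endothelial cells of NdpKO, against 1392 and 1930 CPM in NdpWT, with 0 markers at 0. The 13 mural markers summed to 50.3 and 75.9 CPM in NdpKO, against 137.1 and 159 CPM in NdpWT, with at most 1 at 0. Fibroblasts had more Csf1 than endothelial cells in each library, mural cells had less, and the part of these counts in the result was not tested. The make-up of the class also differed: cluster 18 was 43.1% and 32.6% of endothelial cells in NdpKO, against 23.97% and 27.1% in NdpWT, and cluster 11 was 53.8% and 65.6% in NdpKO, against 74.2% and 69.0% in NdpWT.

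The larger of the endothelial clusters gave a call of its own. Cluster 11, a capillary- or venous-like cluster led by the amino acid transporter gene Slc38a5 and by Aplnr and Kdr, held 161 and 332 cells of NdpKO replicates 1 and 2, against 198 and 724 of NdpWT replicates 1 and 2. Its Csf1 level was 28.1 and 18.6 CPM in NdpKO, from 81 and 59 UMIs, against 53.9 and 51.1 CPM in NdpWT, from 115 and 297 UMIs. The counting intervals of the NdpKO libraries did not reach those of the NdpWT libraries in the plot of ligand levels. The change was −1.18 ± 0.22 (SE, edgeR, adjusted p = 0.00570), where 395 of 11167 genes, 3.54%, passed. It stayed past the threshold without each library in turn (−1.51 to −0.90, adjusted p = 4.5e-05 to 0.0254) and with DESeq2 (adjusted p = 0.0156). In cluster 11 the fibroblast markers summed to 1478 and 2817 CPM in NdpKO, against 704 and 1394 CPM in NdpWT, and the mural markers to 38.9 and 88.0 CPM in NdpKO, against 146.7 and 170.7 CPM in NdpWT. Their part was not tested. The clusters were tested singly after the class result was seen, and not with stricter cell filters. After thinning, which left out 44 and 80 cells of NdpKO and 59 and 192 of NdpWT, 5.98% and 7.14% of cluster 11 cells had a Csf1 UMI in NdpKO, against 12.9% and 12.8% in NdpWT. The same share in erythroid cluster 8 was 1.10% and 1.40% in NdpKO, against 0.578% and 1.00% in NdpWT.

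The arterial-like cluster 18, led by Gkn3, Fbln5 and Bmx, gave no call. Its Csf1 level was 32.0 and 40.4 CPM in NdpKO, against 39.9 and 22.2 CPM in NdpWT, and the groups overlapped. The change was 0.32 ± 0.28 (edgeR, adjusted p = 0.999), and −0.15 without NdpWT replicate 2. The test of the difference between the clusters gave −1.52 ± 0.36 (edgeR with library as block, adjusted p = 0.125, where 112 of 11659 genes, 0.961%, passed). It passed only without NdpKO replicate 1 (−2.05, adjusted p = 0.0101) or without the filter on low counts, so the 2 clusters are not shown to differ.

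**Figure D3:**
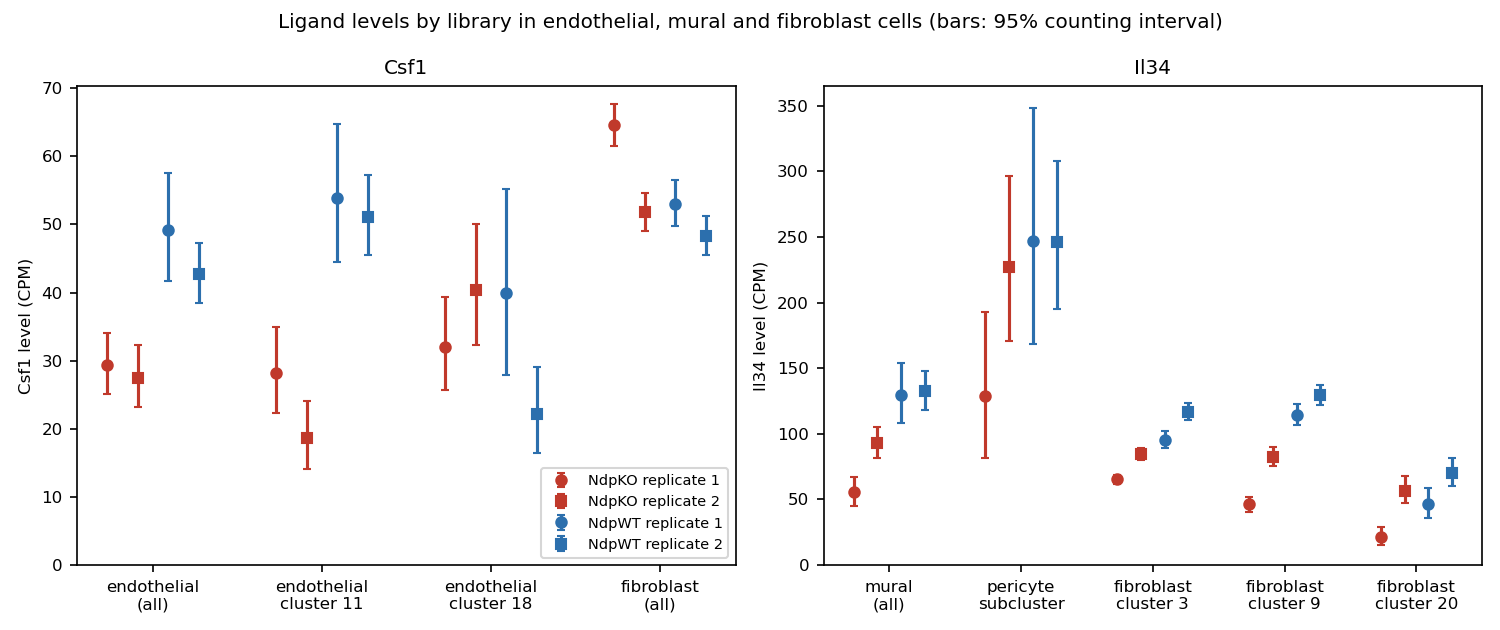
Level in CPM of Csf1 in endothelial cells, their clusters and fibroblasts, and of Il34 in mural cells, the pericyte subcluster and fibroblast clusters. Each point is 1 library, NdpKO in red left of NdpWT in blue, with the exact 95% Poisson interval of its count. Csf1 in endothelial cluster 11 is 18.6 and 28.1 CPM in NdpKO, against 51.1 and 53.9 CPM in NdpWT.

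Csf1 in the other suppliers gave no call. In fibroblasts it averaged 58.2 ± 9.03 CPM in NdpKO and 50.6 ± 3.38 CPM in NdpWT, a change of 0.20 ± 0.14 (edgeR, adjusted p = 0.712), in a class where 2 of 15327 genes, 0.013%, passed. By cluster the change was 0.35 ± 0.16 in fibroblast cluster 3, led by Wnt6 and the retinoic acid synthesis gene Aldh1a2 (adjusted p = 0.678). It was 0.022 ± 0.14 in cluster 9, led by Col15a1 and Edn3 (adjusted p = 0.977), and 0.13 ± 0.22 in cluster 20, led by Col1a1, Lum and Mfap5 (adjusted p = 0.993). In mural cells the change was −0.042 ± 0.30 (adjusted p = 0.999), where 4 of 10778 genes, 0.0371%, passed. In cluster 13 it was 0.24 ± 0.16 (adjusted p = 0.997), where 0 of 13453 genes passed (0.0%), 624 had an unadjusted p under 0.05 and DESeq2 called 7 higher and 6 lower. The genotype change of Csf1 differed between endothelial cells and fibroblasts, by −0.87 ± 0.14 (edgeR with library as block, adjusted p = 0.00381, where 614 of 15197 genes, 4.04%, passed). Without NdpKO replicate 1 this difference was −0.77 (adjusted p = 0.0708). The difference between endothelial and mural cells was −0.62 ± 0.30 (adjusted p = 0.486).

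Il34 was highest in mural cells, fibroblasts and cluster 24. Mural cells had 55.3 and 92.9 CPM in NdpKO replicates 1 and 2, against 129.6 and 132.6 CPM in NdpWT replicates 1 and 2. Fibroblasts had 57.8 and 81.6 CPM in NdpKO, against 98.8 and 115.6 CPM in NdpWT. Cluster 24 had 46.7 and 78.1 CPM in NdpKO, against 89.3 and 109.9 CPM in NdpWT. The ranges of these 3 classes overlapped each other, and none reached down to the next of the ranked classes, erythroid cells (6.78 to 16.5 CPM), which include cluster 29 with collagen genes among its leading genes. The shallow clusters 17 and 27 had 7.05 to 23.98 CPM and 0.0 to 33.8 CPM over the 4 libraries. Cluster 13 had 8.08 and 10.3 CPM in NdpKO, against 9.05 and 12.3 CPM in NdpWT, above erythroid cluster 8 (0.0 to 4.98 CPM) with no overlap. Endothelial cells had 0.675 and 0.9296 CPM in NdpKO, against 0.635 and 4.06 CPM in NdpWT, within the range of erythroid cluster 8. The 2 ligands thus differed in their cells: endothelial cells had Csf1 above background and Il34 at background.

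Fibroblasts held 78.8% and 74.8% of all Il34 UMIs in NdpKO, against 80.7% and 73.2% in NdpWT. Mural cells held 5.16% and 8.30% in NdpKO, against 5.79% and 8.58% in NdpWT, while they were 1.84% and 2.07% of cells in NdpKO and 1.09% and 2.54% in NdpWT. Cluster 24 held 5.61% and 7.43% in NdpKO, against 4.84% and 6.76% in NdpWT. It was 1.07% and 0.918% of cells in NdpKO, against 0.463% and 0.908% in NdpWT. The pericyte subcluster had Abcc9 and Kcnj8, subunits of a potassium channel of pericytes, among its leading genes. Its level was 128.7 and 227 CPM in NdpKO, from 23 and 54 UMIs, against 247 and 246 CPM in NdpWT, from 32 and 78 UMIs. A mural subcluster named fibroblast from its markers had 17.2 and 162.04 CPM in NdpKO, against 190.1 and 281 CPM in NdpWT, from 2 to 27 cells. In an unnamed subcluster led by Ccn5 and Ptgis, with the contractile gene Cnn1, it was 12.4 and 22.4 CPM in NdpKO, against 28.9 and 19.9 CPM in NdpWT. Of fibroblast clusters 3, 9 and 20, cluster 20 was lowest in each library, with 21.2 and 56.8 CPM in NdpKO, against 46.2 and 70.4 CPM in NdpWT.

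Il34 was lower in both NdpKO libraries than in both NdpWT libraries in mural cells and in fibroblasts, but neither passed the test over all genes, which had no replicate block. In mural cells it averaged 74.1 ± 26.6 CPM in NdpKO and 131.1 ± 2.11 CPM in NdpWT (SD, n = 2 each). The change was −0.78 ± 0.21 (SE, edgeR, adjusted p = 0.446), and −1.18 without NdpKO replicate 2, which left replicate 1 as the only NdpKO library. The pericyte subcluster was 11.7% and 11.8% of mural cells in NdpKO, against 18.2% and 14.4% in NdpWT. In fibroblasts it averaged 69.7 ± 16.8 CPM in NdpKO and 107.2 ± 11.9 CPM in NdpWT, a change of −0.62 ± 0.17 (adjusted p = 0.302). NdpKO replicate 1 was the lowest library in both classes. The fibroblasts sat in different clusters: cluster 9 was 18.5% and 22.5% of them in NdpKO, against 41.8% and 34.0% in NdpWT, and cluster 14, of shallow cells, was 24.2% and 16.0% in NdpKO, against 4.73% and 12.8% in NdpWT. Within clusters 3 and 9 both NdpKO libraries still lay below both NdpWT libraries. With 2 libraries a group, such an order can arise without a genotype effect, here as in the whole classes. The share of all genes with it was not counted. By cluster the change was −0.94 ± 0.26 in fibroblast cluster 9 (46.2 and 82.5 CPM in NdpKO, against 114.4 and 129.3 CPM in NdpWT, adjusted p = 0.294). It was −0.48 ± 0.16 in cluster 3 (65.2 and 84.5 CPM in NdpKO, against 95.1 and 116.8 CPM in NdpWT, adjusted p = 0.528). In cluster 20 it was −0.58 ± 0.51 (adjusted p = 0.993). Without NdpKO replicate 2 the changes in clusters 9 and 20 were −1.44 and −1.48, again with replicate 1 as the only NdpKO library. In cluster 13 the change was −0.20 ± 0.24 (adjusted p = 0.997). The difference of the change between mural cells and fibroblasts was −0.13 ± 0.15 (edgeR with library as block, adjusted p = 0.888, where 103 of 14782 genes, 0.697%, passed).

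In mural cells pericyte markers moved with Il34, and smooth muscle markers went the other way. The 6 markers Kcnj8, Abcc9, Higd1b, Vtn, Ndufa4l2 and Art3 summed to 1524 and 1981 CPM in mural cells of NdpKO, against 3465 and 2589 CPM in NdpWT, with 0 markers at 0. The 6 smooth muscle markers, which include Acta2 and Myh11, summed to 20391 and 22294 CPM in mural cells of NdpKO, against 17218 and 16310 CPM in NdpWT. In fibroblasts the pericyte markers summed to 1875 and 2354 CPM in NdpKO, against 2671 and 2628 CPM in NdpWT. These sums lay within the range of the whole mural class, so the list does not set that class apart from fibroblasts. In the pericyte subcluster, which was named from these markers, they summed to 5183 and 6549 CPM in NdpKO, against 9406 and 5800 CPM in NdpWT. The part of these markers in the Il34 result was not tested. After thinning, which left out 12 and 27 mural cells of NdpKO and 23 and 75 of NdpWT, 18.7% and 24.2% of mural cells had an Il34 UMI in NdpKO, against 27.6% and 33.6% in NdpWT. In fibroblasts it was 16.1% and 19.8% in NdpKO, against 24.4% and 26.9% in NdpWT. Unthinned, the fibroblast shares were 52.9% and 53.7% in NdpKO, against 67.5% and 60.1% in NdpWT, at medians of 11671 to 24725 UMIs. The background in erythroid cluster 8 was 0.0% to 1.68%.

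**Figure D4:**
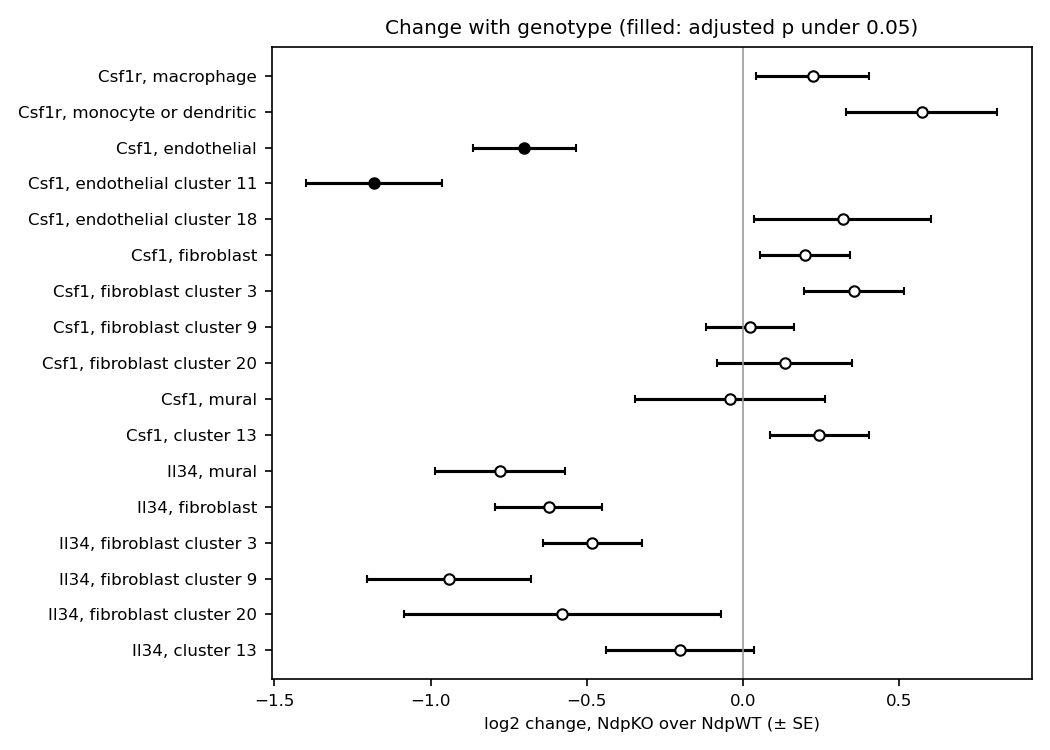
Log2 change of the 3 genes, NdpKO over NdpWT, in the classes and clusters where they were above background, with the standard error of the edgeR fit. Filled points passed adjusted p under 0.05: Csf1 in endothelial cells (−0.70) and in endothelial cluster 11 (−1.18).

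The ligands could be detected in the same fibroblasts. In thinned fibroblasts 3.27% and 2.91% of cells had a UMI of both Csf1 and Il34 in NdpKO, against 3.70% and 3.72% in NdpWT. The product of the separate shares was 2.90% and 2.71% in NdpKO, and 3.22% and 3.60% in NdpWT. Doublets remain among these cells, and their part was not tested.

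Other genes of the pathway were read from 6 lists. Across macrophages none of the 10 transcription factors known to act on Csf1r passed the test, with a median change of 0.01, beside −0.01 over all genes tested. Of 20 tested genes of Csf1r signalling 0 passed, with a median of 0.08. Tyrobp, an adaptor that couples to Csf1r signals, had 2379 and 2286 CPM (scaled by TMM here and in what follows) in NdpKO, against 2530 and 2433 CPM in NdpWT. Spi1, the transcription factor PU.1, had 361 and 356 CPM in NdpKO, against 409 and 351 CPM in NdpWT. Of the border macrophage list 0 of 12 passed (median 0.14), and of the microglia list 0 of 7 (median 0.10). Cx3cr1, the fractalkine receptor, had 635 and 497 CPM in NdpKO, against 413 and 405 CPM in NdpWT, with a change of 0.47 ± 0.15 (edgeR, adjusted p = 0.997). Of the other myeloid growth factors and receptors 0 of 11 passed, and of the other IL-34 receptors and sheddases 0 of 5. Across macrophages 0 of 12625 genes passed, so these counts say nothing particular to the lists.

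In endothelial cells 2 of the 11 tested genes of the other myeloid growth factors and receptors rose, and 0 fell, in a class where 2.57% of all genes passed. Their median change was 0.27, beside 0.00 over all genes tested. Csf2rb, the shared beta subunit of the receptors for GM-CSF, IL-3 and IL-5, had 8.25 and 11.4 CPM in NdpKO, against 1.62 and 1.63 CPM in NdpWT. These are low levels, and the NdpWT values rest on few UMIs. The change of Csf2rb was 2.58 ± 0.39 (edgeR, adjusted p = 0.00408). Cx3cl1, or fractalkine, the ligand of Cx3cr1, had 38.1 and 38.8 CPM in NdpKO, against 21.0 and 20.6 CPM in NdpWT. Its change was 0.89 ± 0.17 (adjusted p = 0.0162), and its call was lost without NdpWT replicate 1 (adjusted p = 0.0540) or replicate 2 (adjusted p = 0.0677). Markers of monocytes or dendritic cells summed to 102.1 and 83.7 CPM in endothelial cells of NdpKO, against 52.4 and 44.2 CPM in NdpWT, with 4 to 7 of the 13 at 0, and their part was not tested. Kitl, the ligand of Kit, had 201 and 243 CPM in NdpKO, against 227 and 199 CPM in NdpWT. In the other 5 lists 0 of 9, 18, 5, 9 and 4 tested genes passed in endothelial cells, counts too small to set against 2.57%.

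In fibroblasts and mural cells 0 genes of any of the 6 lists passed, where 0.013% and 0.0371% of all genes did, so these counts say nothing particular to the lists. The proteases Adam10 and Adam17, known to release membrane proteins from the cell surface, had 61.6 to 74.7 CPM and 33.2 to 36.1 CPM in fibroblasts over the 4 libraries. Border macrophage genes, which fibroblasts mostly lack, were lower in NdpKO for 11 of 11 tested, with a median of −1.09 beside 0.00 over all genes. Of these 0 passed, and the share of all genes lower in NdpKO was not counted. Pf4 had 16.4 and 6.96 CPM in NdpKO, against 42.0 and 13.7 CPM in NdpWT, and the groups overlapped. Csf1r counts in fibroblasts, 4.88 and 4.87 CPM in NdpKO and 12.1 and 5.19 CPM in NdpWT, were highest in NdpWT replicate 1, as those of Pf4 were.

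By pattern over 11 classes, among 12686 genes, the 5 genes most like Csf1r were Tnf, C1qb, Ifi207, Gna15 and P2ry6, with Pearson r of 0.997 to 0.998 between class means of log2(CPM + 1). All 5 were highest in macrophages. Among those most like Csf1 were Acsf2, Cgnl1, Kcp and Tgfbr3, with r of 0.967 to 0.979, highest in fibroblasts or endothelial cells. Those most like Il34 were Vstm4, Tbx18, Hspa12a, Dlk1 and Slc19a1, with r of 0.970 to 0.987, highest in fibroblasts or mural cells. The classes share libraries and depth, so these values only describe the pattern.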

How the data were processed

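The authors' deposited matrices hold raw UMI counts, from Cell Ranger 6.1.2 with mm10 per the submitters' processing notes; no source used here states a removal of doublets or free RNA. Barcodes passed with 500 genes, 1000 UMIs and no more than 10% mitochondrial UMIs. Scrublet took out 97, 212, 241 and 257 barcodes of NdpKO replicates 1 and 2 and NdpWT replicates 1 and 2 (1.70% to 2.59%), where loading predicts 10.3% to 15.3%, so doublets remain. Leiden clustering (scanpy 1.11.5, resolution 1) on 2000 variable genes without Csf1r, Csf1 and Il34 gave 35 clusters, whose names are a reconstruction and need not match the authors'.

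For each class of 50 or more cells per library, counts were added up by library and tested in edgeR 4.0.16 (quasi-likelihood, TMM, filterByExpr with a minimum count of 10, Benjamini-Hochberg over all genes of a class), after a check on simulated counts. CPM of the 3 genes use plain totals. Intervals (95%, exact Poisson) cover counting error only. With 2 pooled libraries a genotype, p-values measure the spread between pools. Replicates differed by more than sampling noise (chi-square divided by its degrees of freedom, 2.79 to 41.7). This excess alone cannot show that the pools are independent, and each of the 4 libraries was kept as its own sample. Alternatives were leaving out each library, a replicate block, DESeq2 1.42.0, plain totals, no low-count filter, stricter cell filters and clustering with the 3 genes kept. Genes named from a list are, by rule, those past adjusted p 0.05 and, where under 3 passed, those of highest mean CPM up to 3, with the 5 genes most like each member, and only some are printed; 1 of them is not reported here. The genes and lists were chosen with earlier results of these data known.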

Additional observations from a re-analysis of the deposited data

Results flagged for a closer look

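The genotype change of Csf1 differed between 2 cell classes. In endothelial cells Csf1 was 29.4 and 27.5 CPM in NdpKO, against 49.2 and 42.7 CPM in NdpWT. In fibroblasts it was 64.6 and 51.8 CPM in NdpKO, against 53.0 and 48.3 CPM in NdpWT. The difference of the log2 changes, endothelial minus fibroblast, was −0.87 ± 0.14 (edgeR with library as block, adjusted p = 0.00381), which is past the threshold. NdpKO replicate 1 was the highest library in fibroblasts, and without it the difference was −0.77 with an adjusted p of 0.0708.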

How the results depend on the processing

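Csf1 in endothelial cells was −0.70, and it missed the threshold without any 1 library (−0.82 to −0.59), with DESeq2 (−0.70), plain totals (−0.68) and stricter cell filters (−0.53). Csf1 in endothelial cluster 11 passed under all 8 alternatives run, at −1.51 to −0.90 without each library. Stricter cell filters and clustering with the genes kept were not among these and were not run on this cluster. Il34 in fibroblasts passed without the low-count filter (−0.61), and in mural cells without that filter (−0.76). In mural cells its change ran from −1.18 to −0.49 without each library. Some directions turned when a library was left out. Without NdpKO replicate 1, Csf1r turned in macrophages (range without each library −0.042 to 0.45) and in their cluster 4 (−0.018 to 0.44). Without NdpWT replicate 2, Csf1 turned in mural cells (−0.10 to 0.078) and cluster 18 (−0.15 to 0.71). Csf1 in fibroblast cluster 9 turned without NdpKO replicate 1 (−0.022) or NdpWT replicate 2 (−0.032 to 0.069). The macrophage share turned without NdpKO replicate 2 (0.16) or NdpWT replicate 1 (−0.91 to 0.17). Csf1, cluster 11 minus cluster 18, passed without the low-count filter (−1.55), at −2.05 to −1.08 without each library, and Csf1, endothelial minus fibroblast, ran from −1.01 to −0.77. The mean Csf1 level in mural cells was 13.05 CPM with stricter cell filters, against 15.8 CPM. The cause of each change was not tested. Counts of calls moved by over 1.5 times: fibroblasts had 0 to 133 calls without each library, 126 with DESeq2 and 600 with a replicate block, macrophages 2 to 52 without each library and 116 with the block, mural cells (4) 6 to 223 and 67, monocytes or dendritic cells (0) 3 to 29 and 1, and cluster 11 (395) 693 with the block and 252 with DESeq2.

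The labels match runs by litter but do not say that replicate numbers mark the match. Deviations of same-numbered libraries correlated at 0.0836 to 0.278 over classes. With a replicate block Il34 passed in fibroblasts (−0.64, adjusted p = 0.00299) and mural cells (−0.78, adjusted p = 0.0337), Csf1 in endothelial cells kept its call (−0.71, adjusted p = 0.00039), Csf1r in endothelial cells (0.98), Il34 in fibroblast cluster 9 (−0.98) and Cx3cr1 in macrophages (0.46) passed, and calls in endothelial cells were 1048, against 322. Depth limits Csf1 in mural cells, at 15 to 40 UMIs per library.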

Other observations

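Csf1 was also counted in small classes that were not tested. Astroglia had 47.0 and 48.7 CPM in NdpKO replicates 1 and 2, against 56.3 and 26.1 CPM in NdpWT replicates 1 and 2, from 5 to 78 UMIs per library. Mast cells, which are few at 10 to 30 cells per library, had 20.2 and 45.6 CPM in NdpKO, against 50.3 and 56.4 CPM in NdpWT, from 4 to 13 UMIs. Their Il34 counts were 0 or 1 UMI in each library.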
